A study of Mus musculus with 39 samples.

Results

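The uncoupling proteins Ucp1, Ucp2 and Ucp3 were followed in cells of mouse brown fat over a diet time course. The members were the 3 genes that carry these symbols in the annotation of the array, out of 29411 gene symbols, and they were read by 6 of the 40628 probes. Ucp1 had 2 probes, Ucp2 had 3 probes and Ucp3 had 1 probe. The annotation places Ucp1 on chromosome 8, band C2, and Ucp2 and Ucp3 on chromosome 7, band E3. The samples were C57BL/6J mice, weaned at 3 to 4 weeks of age, with no genetic change named in the labels. LFC (10 arrays) was a diet with 10% of calories from fat. HFC (11 arrays) was a diet with more sucrose and 60% of calories from fat. HF5, HF20 and HF75 (6 arrays each) were the HFC diet with 5, 20 or 75 µg of KAL-1, a botanical formulation in water. Both control diets have arrays from Day 1, 6, 10 and 14 and from Week 0, 3, 9, 12, 15 and 18, with Week 6 present for HFC but not LFC. The KAL-1 groups have arrays from Week 3 to Week 18. By label the samples are brown infiltrating macrophages (SVCs), and SVCs usually stands for stromal vascular cells, the fraction left once fat cells are removed. The labels do not say how many animals an array stands for, and each diet had 1 array at each time label although the design text names 3 biological replicates, so the error of every comparison is the spread between time labels. It may hold technical differences between arrays.

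The uncoupling proteins are carriers of the inner mitochondrial membrane. Ucp1 is the protein that lets brown fat cells release the energy of the proton gradient as heat, and it is made almost only in brown and beige fat cells. Ucp2 is made in many tissues and is common in immune cells such as macrophages, while Ucp3 is made mainly in skeletal muscle and brown fat and rises when fatty acids are burned. Noradrenaline acting on beta adrenergic receptors, through cyclic AMP and protein kinase A, is the usual signal that raises Ucp1.

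The probes are shown first because several of them read the same gene differently. Levels are log2 of the processed signal minus the 75th percentile of the array, so 0 is the brightness that 75% of spots lie below. Each probe has 60 bases, and stretches that may lie in untranslated parts were cut to 30 bases. Probe 1 of each gene is the main one (saturated on the fewest arrays, then brightest). The TGA in capitals is the stop codon that ends the frame starting at the first base of the Ucp2 probe.
Ucp1 probe 1, first 30 bases: gctcaaactagtgggaaggaaaaattagtc
Ucp1 probe 2, whole: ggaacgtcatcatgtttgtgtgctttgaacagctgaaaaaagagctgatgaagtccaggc
Ucp2 probe 1, first 51 bases: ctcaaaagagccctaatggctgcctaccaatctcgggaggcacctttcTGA
Ucp3 probe 1, first 30 bases: caatgttttaggagagattctgtccagaga

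The 250 bases before the RefSeq start of each gene (build GRCm38.p6, plus strand) were set side by side, to show what the starts of the members have in common. Capitals mark AGGTCA (the core letters bound by many nuclear receptors) and TGACG (core letters of the cyclic AMP response element), searched on both strands. They did not overlap in these windows.
Ucp1, chr8:83290098-83290347: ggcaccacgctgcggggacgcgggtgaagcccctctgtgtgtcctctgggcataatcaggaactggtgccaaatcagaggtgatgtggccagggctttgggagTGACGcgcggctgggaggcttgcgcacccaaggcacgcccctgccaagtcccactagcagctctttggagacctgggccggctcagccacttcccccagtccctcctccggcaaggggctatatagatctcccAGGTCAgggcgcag
Ucp2, chr7:100493108-100493357: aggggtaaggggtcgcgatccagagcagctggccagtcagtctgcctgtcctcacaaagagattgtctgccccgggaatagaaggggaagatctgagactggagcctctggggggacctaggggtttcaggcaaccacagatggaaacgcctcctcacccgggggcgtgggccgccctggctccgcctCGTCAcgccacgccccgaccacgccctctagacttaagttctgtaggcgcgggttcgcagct
Ucp3, chr7:100472741-100472990: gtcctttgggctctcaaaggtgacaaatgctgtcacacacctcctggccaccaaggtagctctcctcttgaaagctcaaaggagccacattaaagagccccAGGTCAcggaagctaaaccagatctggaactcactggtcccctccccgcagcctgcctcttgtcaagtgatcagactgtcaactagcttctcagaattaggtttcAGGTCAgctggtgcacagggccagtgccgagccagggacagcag
AGGTCA stood once in the Ucp1 window and at 2 places in the Ucp3 window, and its letters were not in the Ucp2 window. TGACG stood once in the Ucp1 and once in the Ucp2 window. Of 32817 windows of this length, 14.0% held AGGTCA and 17.7% held TGACG.

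The arrays differed widely in brightness. The 75th percentile ranged from 18.1 (HF20 Week 9) to 3974 (HF20 Week 15) intensity units with a median of 130. Spots marked by the scanner software as nonuniform or outlying were over 10% on 3 arrays, with 71.4% on HF20 Week 15. A total of 9 arrays carry BA or BAT in their titles, and their median brightness was 852 against 81.1 on the other 30. The label of the cells was checked against markers. Of 12 macrophage markers 9 were well above background on all 39 arrays, among them Cd68, Csf1r and Emr1. Of 10 brown adipocyte markers 5 were too, among them Cidea, Cox7a1 and Cox8b, and so were 11 of 12 general adipocyte markers and 8 of 12 skeletal muscle markers. Markers of fat and muscle cells were therefore present in samples labelled as macrophages. Other lists gave lower counts by the same measure. They were 2 of 7 neutrophil markers with a probe, 0 of 6 T cell, 0 of 6 B cell and 0 of 7 mesothelial and visceral markers. Among the 40628 probes of the platform, 9854 met this measure on every array.

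Ucp1 was well above background on 38 of 39 arrays by its main probe and on all 39 by probe 2. The level of its main probe was measured on 37 arrays, with a median of 3.43, a lowest value of -5.39 (LFC Day 10) and a highest value of 6.19 (HF75 Week 15), on the log2 scale. In LFC it ranged from -5.39 at Day 10 over a median of 2.37 to 5.58 at Week 12 (n = 10). In HFC it ranged from 0.39 at Day 6 over a median of 2.90 to 5.65 at Week 9 (n = 10). The ranges of LFC and HFC overlapped, and LFC Day 10, where probe 1 was not well above background, stood below every other array. In HF5 the level ran from 2.46 (Week 12) over 4.81 to 5.77 (Week 15), with n = 6. In HF20 it ran from 2.14 (Week 3) over 3.67 to 5.68 (Week 9), with n = 5, since the spots of Week 15 were marked. In HF75 it ran from 2.62 (Week 6) over 3.62 to 6.19 (Week 15), with n = 6. All KAL-1 arrays lay inside the span of HFC and LFC combined, apart from the HF5 and HF75 arrays of Week 15 and HF20 Week 9, which were higher.

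A pair of arrays had very low Ucp1. On LFC Day 10 the probes read -5.39 and -3.16. On HFC Week 12 probe 2 read -3.18 and the spots of probe 1 were marked and left out. On the other 37 arrays probe 2 lay at or above 1.48 (HF20 Week 15). These 2 arrays also had the lowest brown adipocyte scores (-3.14 and -4.65) and the highest mesothelial and visceral scores (5.84 and 5.29), where a score is the mean centred log2 level of the list. The latter score rests on Msln, Lrrn4 and Krt19, the 3 of 7 genes past the filter. On HFC Week 12 the macrophage score was the highest of all arrays (2.15), and on LFC Day 10 it was -0.12. Their part in the Ucp1 values was not tested. In such bulk samples fewer cells of a type and less RNA per cell cannot be told apart.

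**Figure D1:**
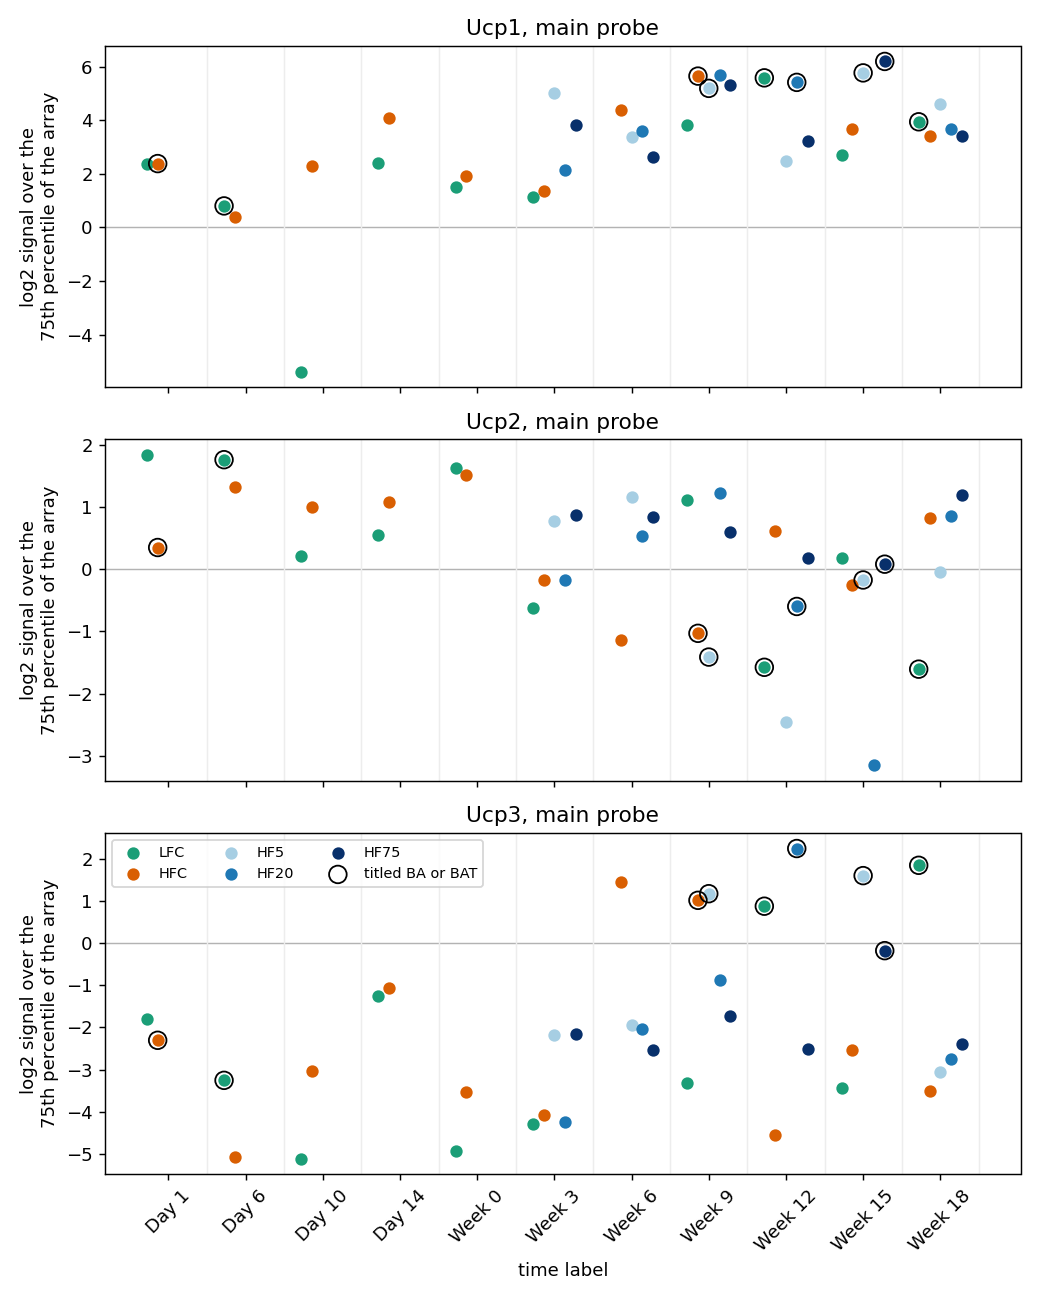
Level of the main probe of Ucp1, Ucp2 and Ucp3 (log2 over the 75th percentile of the array) at each time label, 1 point per array, coloured by diet, with the 9 arrays titled BA or BAT ringed. Ucp1 fell to -5.39 on LFC Day 10, and 6 of the 7 arrays with Ucp3 above 0 are ringed.

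Probe 2 of Ucp1 reached the limit of the scanner. It was saturated on 7 arrays, 6 of them titled BA or BAT, and probe 1 was saturated on LFC Week 12 only. The levels of probe 2 on these 7 arrays lay between 5.80 and 6.62, close to the saturation value of 65525 units, which corresponds to 5.67 to 6.48 on these arrays. These levels are lower bounds. The gap of probe 2 over probe 1 had a median of 3.22 on arrays without saturation and lay between 0.21 and 2.07 on saturated arrays. Over 37 arrays the probes had r = 0.782, and over the 30 without saturation r = 0.876. The correlation of probe 2 with the log2 brightness was -0.461 over 39 arrays, against 0.128 for probe 1 over 37.

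**Figure D2:**
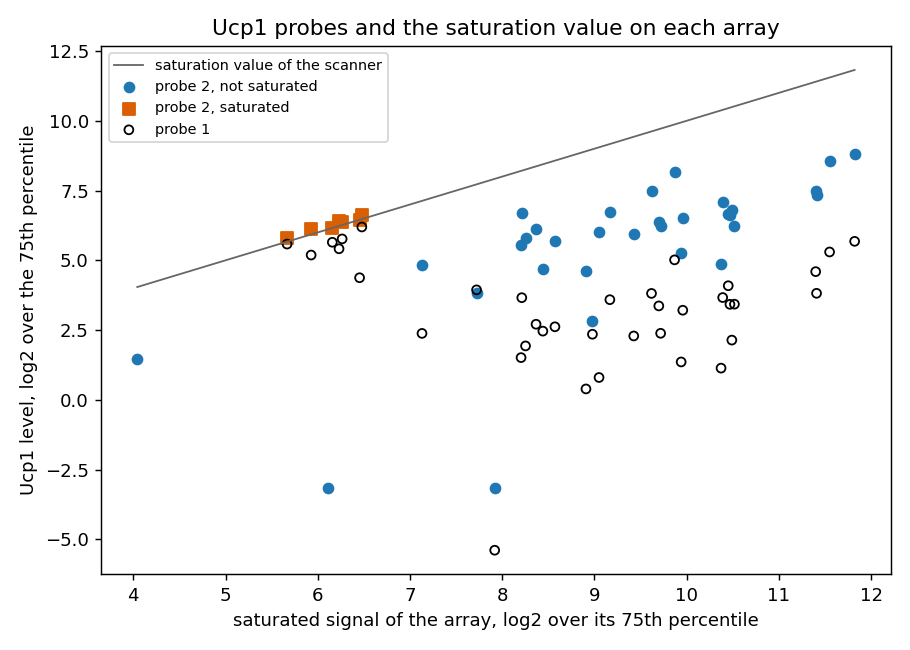
Level of both Ucp1 probes (vertical axis) against the saturation value of each array (horizontal axis), both as log2 over the 75th percentile, 1 point per probe and array. The 7 saturated points of probe 2 lie on or close to the line of the saturation value, between 5.80 and 6.62, while the open circles of probe 1 lie below it.

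Ucp2 was well above background on all 39 arrays by its main probe, and it varied less than the other members. Its level had a median of 0.54, a lowest value of -3.15 (HF20 Week 15, the array with 71.4% marked spots) and a highest value of 1.84 (LFC Day 1). Its SD over the arrays was 1.15, close to the median SD of 1.12 over 34043 probes, while the SDs of Ucp1 (2.11) and Ucp3 (2.07) were above those of 93.4% and 92.1% of probes. By diet, LFC ran from -1.61 (Week 18) over 0.38 to 1.84 (Day 1). HFC ran from -1.14 (Week 6) over 0.61 to 1.52 (Week 0), and HF5 from -2.45 (Week 12) over -0.10 to 1.17 (Week 6). HF20 ran from -3.15 (Week 15) over 0.18 to 1.23 (Week 9), and HF75 from 0.08 (Week 15) over 0.72 to 1.20 (Week 18). The diets overlapped throughout. HF75 was the only diet in which Ucp2 was above 0 on all 6 arrays. Probe 2 followed probe 1 (r = 0.816 over 39 arrays) and probe 3 had r = 0.572 (over 38), and they were well above background on 27 and 12 arrays.

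Ucp3 was low on most arrays and high on a few. Its probe was well above background on 25 arrays and measured on 37, with a median of -2.39, a lowest value of -5.12 (LFC Day 10) and a highest value of 2.24 (HF20 Week 12). It lay above 0 on 7 arrays, from 0.88 to 2.24, and 6 of these carry BA or BAT in the title. The other array was HFC Week 6 (1.46). LFC ran from -5.12 over -3.28 to 1.85 (Week 18), and HFC from -5.08 (Day 6) over -3.02 to 1.46. HF5 ran from -3.07 (Week 18) over -1.94 to 1.60 (Week 15), and HF20 from -4.24 (Week 3) over -2.04 to 2.24. HF75 ran from -2.54 (Week 6) over -2.27 to -0.18 (Week 15). Each diet but HF75 had an array above 0, and the range within every diet was larger than the gap between the medians of any pair of diets. The titled arrays had a median of 1.02 and the other arrays of -2.64.

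Day 14 and Week 0 count as the same day in the methods, and give the only repeat of a diet at a time. For LFC, Ucp1 was 2.39 and 1.51, Ucp2 0.55 and 1.63, and Ucp3 -1.25 and -4.92. For HFC, Ucp1 was 4.09 and 1.93, Ucp2 1.07 and 1.52, and Ucp3 -1.06 and -3.53. Both diets moved the same way between these labels for each member, and the steps of Ucp3 were larger than its HFC and LFC difference on either label. The Day 14 arrays and the Week 0 arrays were scanned on different dates, so these steps cannot be told apart from scan date. At Day 14 the columns of the series table have the diets crossed relative to the scanner files (r = -0.995 over probes), so which array is HFC there is not settled.

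The first comparison asks whether the high fat diet changed these genes. No member passed the test. The background share was 0% of 34043 probes past an adjusted p of 0.05 (limma), with 959 probes (2.82%) at an unadjusted p under 0.05. For Ucp1 the difference of HFC minus LFC was 1.17 (SE 0.66, 95% interval -0.20 to 2.53, adjusted p = 0.9995), on the log2 scale. HFC was higher at 7 of 9 time labels, and the differences ran from -0.52 at Week 18 to 7.68 at Day 10. Week 12 is not among these labels, since the HFC spots of probe 1 were marked there. The LFC signal of Day 10 was not well above background, so the size of that difference is uncertain. Over the other 8 labels the mean difference was 0.53 ± 0.89 (SD). The median over labels was 0.42, so the mean rests on Day 10 and its LFC array, and the fitted difference without that label was 0.42. Without the titled arrays it was 2.29, still not past the threshold. In the exact two-sided permutation test that exchanges the diets within time labels, p was 0.0742 (adjusted over 12 tests 0.75). By probe 2, HFC was higher at 7 of 10 labels, and the differences ran from -8.973 at Week 12 to 9.099 at Day 10. The Ucp1 result by probe 2 thus holds large differences in both directions. Probe 2 was saturated on LFC Week 12, so the gap at that label may be wider. The Ucp2 difference was 0.05 (SE 0.47, interval -0.90 to 1.01), with HFC higher at 5 of 10 labels. The Ucp3 difference was -0.09 (SE 0.84, interval -1.82 to 1.64), with HFC higher at 6 of 10 labels, and single labels ran from -5.43 (Week 12) to 4.33 (Week 9). At each of these 2 labels, the higher array was a titled one.

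Within the pairs of HFC and LFC arrays scanned on the same date, the mean differences were 2.05 ± 3.25 for Ucp1 (SD, n = 5), 0.90 ± 1.18 for Ucp2 (n = 6) and -1.04 ± 3.43 for Ucp3 (n = 6). None was larger than its spread. With the Day 14 labels exchanged, the fitted Ucp1 difference was 0.82, and with marked spots kept, which brings in HFC Week 12, it was 0.54. The LFC and HFC values above all rest on arrays whose fat cell and leukocyte markers differ from label to label, and the part of those markers was not tested.

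The other comparisons ask whether KAL-1 changed the members against HFC. The background share was again 0% of 34043 probes in each of the 3 comparisons, while an unadjusted p under 0.05 was reached by 1.49% of probes for HF5, 2.89% for HF20 and 3.6% for HF75. The Ucp1 differences were 0.30 (SE 0.81) for HF5, 0.14 (SE 0.85) for HF20 and -0.01 (SE 0.81) for HF75. Their 95% intervals were -1.36 to 1.96, -1.61 to 1.88 and -1.67 to 1.65. At Week 3, HF5 and HF75 stood above HFC by 3.66 and 2.46, and at Week 6 the differences were -1.01 and -1.76. HFC Week 6 was a bright array (748 units) on which probe 2 was saturated. The Ucp3 differences were 1.16 (SE 1.1), 0.44 (SE 1.1) and -0.03 (SE 1.05). The HF5 value was 0.0538 without the titled arrays and 0.36 without Week 15, and the HF20 pairs ran from -3.50 (Week 6) to 6.80 (Week 12). The HF20 array of Week 12 has a second label that gives the high fat diet alone, and without it the Ucp3 difference of HF20 was -0.54. The Ucp1 and Ucp3 estimates were highest for HF5 and lowest for HF75, with 95% intervals that all include 0, and doses were not compared with each other. A missed threshold does not show that the doses act alike.

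Ucp2 in HF75 had the largest ratio of difference to SE of the main probes in the KAL-1 comparisons. Its level was higher in HF75 than in HFC at 5 of 6 weeks. The differences were 1.05 at Week 3, 1.97 at Week 6, 1.63 at Week 9, -0.43 at Week 12, 0.33 at Week 15 and 0.37 at Week 18. At Weeks 6 and 9, where the difference was widest, the HFC arrays had brightness of 748 and 918 units and macrophage scores of -0.94 and -1.64, against 0.57 and 0.83 in HF75, and their part in the difference was not tested. The fitted difference was 0.90 (SE 0.58, interval -0.28 to 2.08), and the exact permutation p was 0.125 (adjusted over 12 tests 0.75), where the design allows 0.0312 at the smallest. Probes 2 and 3 gave 0.93 (SE 0.46) and 1.32 (SE 0.66), and probe 3 was higher at 6 of 6 weeks with an exact permutation p of 0.0312, the smallest possible and not adjusted. That probe was well above background on 3 of 6 HF75 arrays. Within the pairs of 1 scan date (Weeks 12 and 15) the mean Ucp2 difference was -0.05, the fitted difference without the titled arrays was 0.28, with scan date in place of the time label 0.12, and without the time label 0.25. It did not pass the threshold in any setting tried. For HF5 and HF20 the Ucp2 differences were -0.08 (SE 0.58) and 0.06 (SE 0.58).

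**Figure D3:**
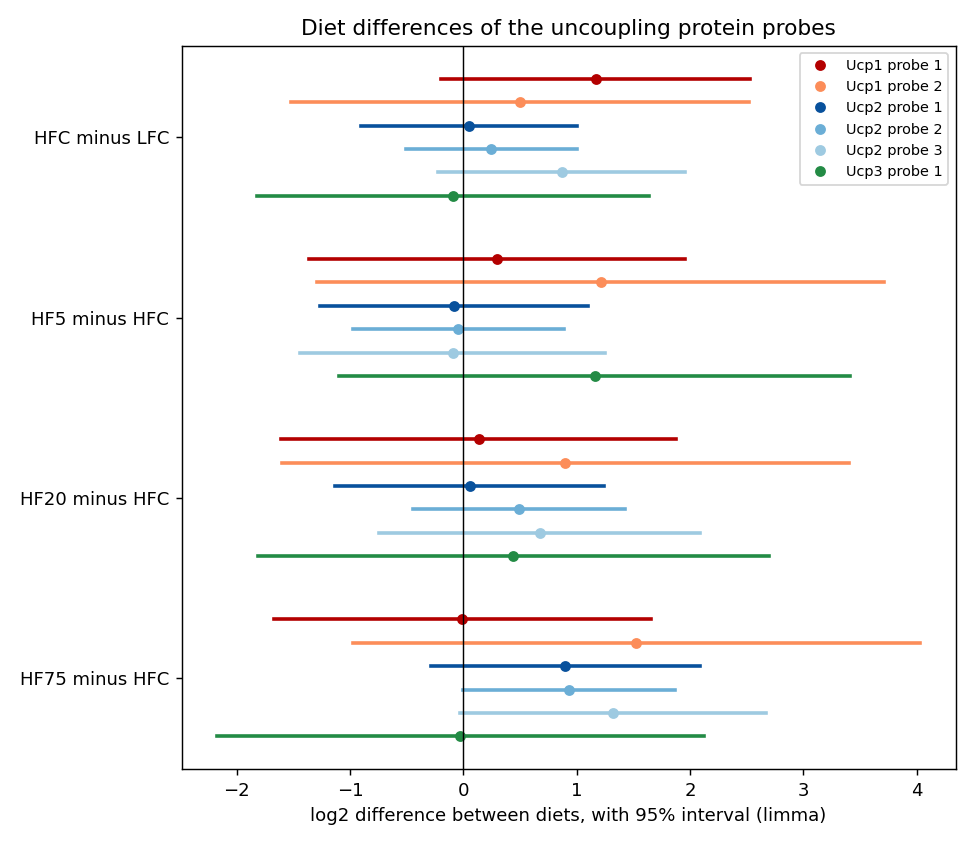
Log2 difference between diets with its 95% interval from limma (horizontal axis) for each of the 6 probes (colours) in the 4 comparisons (rows). All 24 intervals include 0, and in HF75 minus HFC the 3 Ucp2 probes lie at 0.90, 0.93 and 1.32.

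The change over time was fitted in LFC and HFC as a slope per doubling of days. The background share was 0% of 34043 probes, with 11.9% at an unadjusted p under 0.05. Ucp2 fell by 0.29 per doubling (SE 0.09, interval -0.48 to -0.09, adjusted p = 0.256), and probes 2 and 3 gave -0.32 and -0.20, none past the threshold. The Ucp1 slope was 0.48 (SE 0.21, adjusted p = 0.383) by probe 1, 0.94 without Day 1, and 0.16 (SE 0.28) by probe 2, and the Ucp3 slope was 0.25 (SE 0.21, adjusted p = 0.609). The values of Ucp2 were above 0 on all 10 arrays up to Week 0 and on 4 of 11 later ones. No array with a Day label shared a scan date with an array with a Week label. Between Day and Week labels, time and scan date can therefore not be told apart. The titled arrays of these diets are HFC Day 1, LFC Day 6, HFC Week 9, LFC Week 12 and LFC Week 18, and without them the Ucp2 slope was -0.24.

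The members were then set against markers of the cell types that such a sample could hold. These are correlations over arrays, and all genes of an array share its brightness and its share of cells. In all, 27 relations were computed and the p-values adjusted over them, with 1e-05 the smallest permutation p the 100000 draws can give. Ucp1 varied most closely with the brown adipocyte markers (r = 0.888, rho = 0.895, n = 37, permutation p = 1e-05, adjusted 6.75e-05). Without the 2 arrays farthest on the score r was 0.868, without the titled arrays 0.876, and on residuals of diet and time label 0.729. With the skeletal muscle markers Ucp1 had r = 0.446 (rho = 0.507, adjusted permutation p = 0.0087), which was 0.452 without the titled arrays. With the macrophage markers Ucp1 had r = -0.0967 (rho = -0.0806, adjusted permutation p = 0.57). With the mesothelial and visceral markers it had r = -0.619 (rho = -0.367, adjusted permutation p = 0.000768), which was -0.377 without the 2 farthest arrays and -0.470 without the titled arrays, where it did not pass (adjusted permutation p = 0.0829).

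Ucp2 varied with leukocyte markers. Its r was 0.622 with macrophage (rho = 0.568), 0.571 with neutrophil (rho = 0.578), 0.543 with T cell (rho = 0.603) and 0.536 with B cell markers (rho = 0.473), at adjusted permutation p from 0.000135 to 0.0012. On residuals the macrophage value was 0.745, without the titled arrays 0.676, and without the 2 farthest arrays 0.582. Without the titled arrays T cell markers kept r = 0.481 (adjusted permutation p = 0.0238), while neutrophil (0.433, adjusted permutation p = 0.0592) and B cell markers (0.348, adjusted permutation p = 0.148) did not pass. With log2 brightness removed it was 0.438, and the other 3 lay between 0.274 and 0.284. Ucp2 itself had r = -0.581 with brightness. The median r of Ucp2 with the 5071 genes well above background and measured on all arrays was 0.376. A typical gene thus also rose with Ucp2. Its r with brown adipocyte markers was -0.119 and with skeletal muscle markers -0.219, neither past the threshold, while rho was -0.356 and -0.365 (adjusted permutation p = 0.0384 for each).

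Ucp3 varied with fat cell markers. Its r was 0.798 with general adipocyte (rho = 0.667) and 0.722 with brown adipocyte markers (rho = 0.747), each with an adjusted permutation p of 6.75e-05. Without the titled arrays these were 0.590 and 0.598, and on residuals 0.788 and 0.724. With skeletal muscle markers it had r = 0.486 (rho = 0.546, adjusted permutation p = 0.00397), and 0.668 without HF5 Week 9 and HFC Week 12, the farthest arrays on that score. With the 4 leukocyte lists r lay between -0.650 (neutrophil) and -0.483 (macrophage), while rho ran from -0.431 to -0.258 and did not pass for macrophage and B cell markers. Ucp3 itself had r = 0.486 with log2 brightness. With brightness removed, r with these 4 lists lay between -0.495 (neutrophil) and -0.318 (macrophage). Without the titled arrays r was between -0.205 and -0.0905 and passed no threshold. The negative relation of Ucp3 to leukocyte markers rests on the 9 titled arrays.

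**Figure D4:**
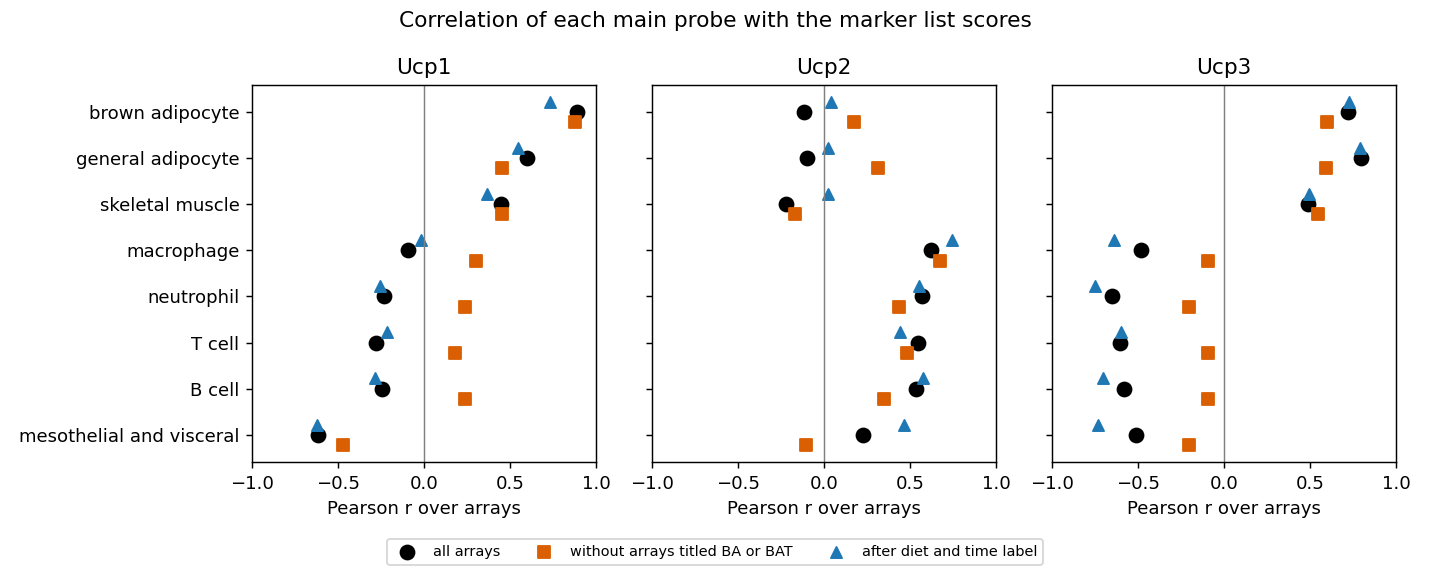
Pearson r over arrays of the main probe of each member with 8 marker lists (rows), over all arrays (black), without the 9 titled arrays (orange) and on residuals of diet and time label (blue). Ucp1 is highest with brown adipocyte markers (0.888), Ucp2 with macrophage markers (0.622) and Ucp3 with general adipocyte markers (0.798).

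**Figure D5:**
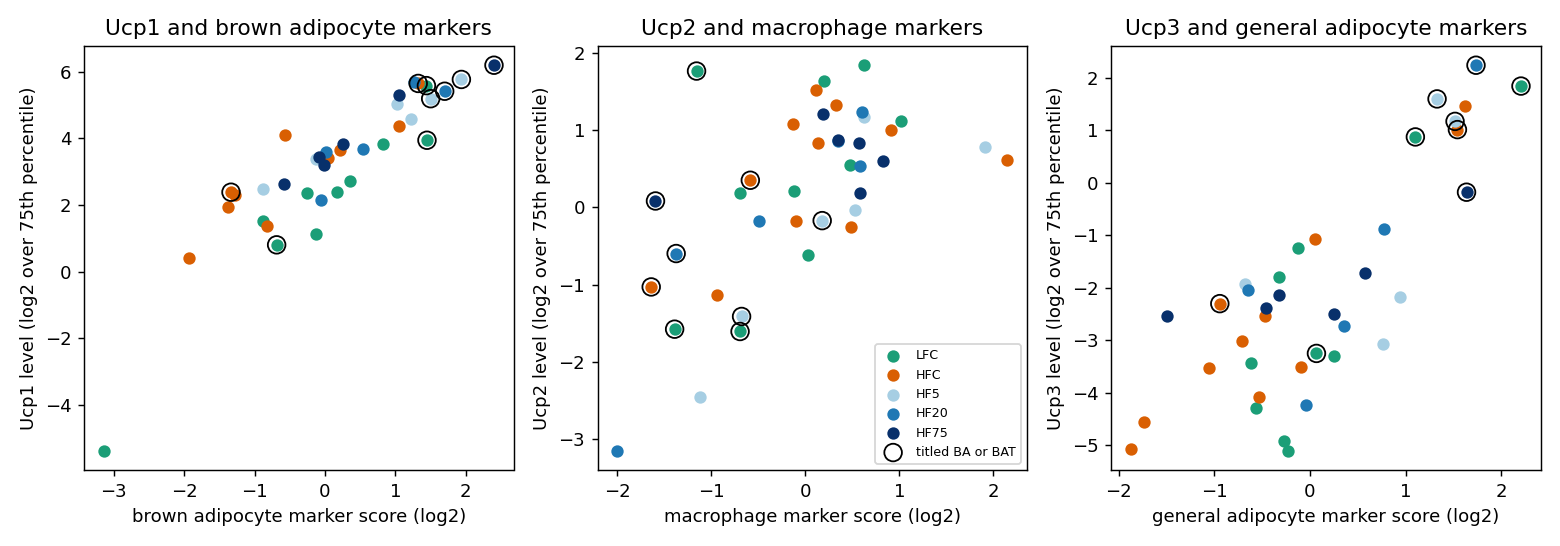
Level of Ucp1, Ucp2 and Ucp3 (log2 over the 75th percentile) against the score of the list each was closest to, 1 point per array, coloured by diet, with titled arrays ringed. The LFC Day 10 point lies lowest in the Ucp1 panel (-5.39), and HF20 Week 15 lies lowest in the Ucp2 panel (-3.15).

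Among the members, Ucp1 and Ucp3 varied together (r = 0.713, rho = 0.797, n = 36, adjusted permutation p = 6.75e-05, and r = 0.655 without the titled arrays). With Ucp1 read by probe 2 the value was 0.303 and did not pass. That probe was saturated on most of the arrays with Ucp3 above 0, where its levels are lower bounds. Ucp2 and Ucp3, neighbours on chromosome 7, ran in opposite directions over all arrays (r = -0.585, rho = -0.379), and this was -0.118 without the titled arrays. Ucp1 and Ucp2 had r = -0.242, which did not pass.

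The genes most like each member were taken from 5071 genes well above background and measured on all 39 arrays. This r is a description over arrays that share brightness and cell content. For Ucp1 these were Etfdh (r = 0.906), Gm9108 (0.895), Acsm3 (0.862), Idh3a (0.861) and Apoo (0.857). Etfdh passes electrons of fatty acid oxidation to the respiratory chain, and Idh3a is an enzyme of the citric acid cycle. For Ucp2 they were Isg20 (0.875), LOC635039 (0.837), Gm4157 (0.837), Samhd1 (0.831) and Gm7848 (0.830). Isg20 is an interferon induced exonuclease and Samhd1 an enzyme that limits nucleotides in myeloid cells. For Ucp3 they were Coq5 (0.911), Cebpa (0.903), Sdha (0.901), Pigy (0.900) and Sdhb (0.896). Sdha and Sdhb are subunits of succinate dehydrogenase, Coq5 makes ubiquinone, and Cebpa is a transcription factor of fat cells. Ucp3 had 254 genes over r = 0.8, while Ucp1 had 18 and Ucp2 had 19. The median r over the 5071 genes was -0.017 for Ucp1, 0.376 for Ucp2 and -0.073 for Ucp3.

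The pathway that raises Ucp1 in brown fat was read by 19 genes, some of them also in the fat cell lists. In each diet comparison 0 of the 19 passed the test in either direction, against a background of 0%, and their median difference was -0.33 for HFC minus LFC, where all probes had 0.05. The lowest was Adrb3, the beta 3 adrenergic receptor of fat cells (-0.995 on the log2 scale), and the highest Irf4, a transcription factor of lymphocytes and fat cells (1.20). In HF5 minus HFC the highest was Dio2, which activates thyroid hormone (2.14). Over the arrays this list was set against each member. Of 24720 genes past the filter, 7.38% had r over 0.5 with Ucp1, 14.1% with Ucp2 and 14.1% with Ucp3. With Ucp3, 14 of 19 genes had r over 0.5, led by Esrra (0.886), Ppara (0.876) and Adrb1 (0.865), and with Ucp1 11 of 19 did, led by Prkar2b (0.814), a regulatory subunit of protein kinase A. With Ucp2, 0 of 19 did, and Creb1 was highest (0.238). These counts change without the titled arrays. They were then 11 of 19 for Ucp3, 5 of 19 for Ucp1 and 1 of 19 for Ucp2, where Gnas was highest (0.502) and Creb1 had 0.0749, and the shares of all genes were 5.91%, 6.43% and 17.0%.

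Of 10 genes that respond to fatty acids 0 passed in any diet comparison. Their median difference was -0.18 for HFC minus LFC and 0.64 for HF5 minus HFC. The r with Ucp3 was over 0.5 for 6 of 10 genes, highest for Cpt1b, the muscle and brown fat form of carnitine palmitoyltransferase (0.858). It was -0.696 for Cpt1a, the form of liver and many other cells, which had r = 0.684 with Ucp2. With Ucp1 the values were 0.757 for Cpt1b and -0.600 for Cpt1a. For Pdk4, which spares glucose when fat is burned, r was 0.80 with Ucp1 and 0.760 with Ucp3.

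Of 8 related mitochondrial carriers 0 passed in any diet comparison. The oxoglutarate carrier Slc25a11 followed Ucp3 (r = 0.823) and Ucp1 (0.659), and without the titled arrays these were 0.605 and 0.496. The adenine nucleotide carrier Slc25a5 had r = 0.730 with Ucp3 and 0.360 with Ucp2, an order that turned without the titled arrays (0.528 and 0.732). The brain forms Slc25a27 and Slc25a14, also called Ucp4 and Ucp5, had r of -0.545 and -0.317 with Ucp3. Without the titled arrays their order turned too (-0.284 and -0.559). Slc25a31, an adenine nucleotide carrier of the testis, was well above background on 8 arrays.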

How the data were processed

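Total RNA of 39 samples was labelled with Cy3 and hybridised to 1-colour Agilent mouse arrays. The authors scanned them with Agilent Feature Extraction (9.1 in the processing notes, 10.5.1.1 in the file headers), and the deposited intensity values (processed signal) are background subtracted and detrended within each array. The deposited series table holds log2 values after a shift to the 75th percentile, with the LFC array of the same time label subtracted. It was used for gene symbols and as an alternative. Of its columns, 0 belonged to no sample. At Day 14 it has the 2 diets crossed against the scanner files. The genome build is not given in the sources used here.

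From the intensities, spots marked as nonuniform or population outliers were dropped, log2 was taken and the 75th percentile of each array subtracted. Spots of a probe were averaged. Probes well above background on at least 6 arrays (34043) were fitted in limma 3.58.1 (R 4.3.3, statmod 1.5.0) with diet and time label as additive terms over all 39 arrays, with Benjamini-Hochberg adjustment and a threshold of 0.05. The trend used diet and log2 of days over 21 arrays. Python 3.11.15 with scipy 1.17.1 gave two-sided exact and permutation tests (100000 draws for correlations).

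The main probe of a member was the one saturated on the fewest arrays, then the brightest. Named genes were the members, the 5 genes with the highest r to each among probes well above background and measured on all arrays, and genes of 3 pathway lists. The members and lists were chosen with earlier results of these data known. The study has 1 array per diet and time label, and the array values of a label deviated together with r over 0.1 at 7 of 10 labels (median 0.267), so the labels do not pair all samples and the term was kept as planned. HFC minus LFC was also run on simulated data for 9136 probes measured on all arrays. Changes of 1, 2, 4 and 8 on the log2 scale were called in 14%, 68%, 100% and 100% of the changed probes. These rates hold for 200 changed probes among the 9136, with noise drawn independently for each probe. In the real fit 0 of 34043 probes passed, so a single changed probe, such as that of Ucp2, would meet a stricter cutoff. Ucp1 probe 1 and Ucp3 were not among the 9136. Their SEs for this comparison (0.66 and 0.84) lay above the median of 0.455 over all probes fitted, so these rates do not describe them. Alternatives were other scalings, normexp background, filters, blocks (slide, scan date, no time label), array weights, the methods' t-test, other probes and arrays left out. Gene starts were taken from RefSeq (GRCm38.p6).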

Additional observations from a re-analysis of the deposited data

Results flagged for a closer look

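The lowest and highest arrays of a probe within a diet were compared with the other arrays by Dixon's test, in 25 groups of 5 to 10 arrays, and 4 stood apart. HFC has 11 arrays for 5 of the 6 probes and was not tested for these, so the low Ucp1 probe 2 value of HFC Week 12 (-3.18) was not among the arrays tested. Chance alone gives about 1 such array in 20 groups. Ucp1 on LFC Day 10 was the lowest of 10 by both probes, at -5.39 and -3.16 on the log2 scale. Ucp1 probe 2 on HF20 Week 15, the array with 71.4% marked spots, was the lowest of 6 at 1.48. Ucp3 on HF75 Week 15, a titled array, was the highest of 6 at -0.18.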

How the results depend on the processing

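The members passed the threshold in 0 of 469 alternative values of their differences and slopes, with 0.133 the smallest adjusted p (limma). The fitted differences are close to 0 for most members, so their sign turned often, and the cause was not tested unless the setting itself leaves out arrays. HFC minus LFC for Ucp1, HF75 minus HFC for Ucp2 and HF5 minus HFC for Ucp3 kept their sign in every setting tried. So did the slopes of Ucp1 and Ucp2. The r of Ucp1 with brown adipocyte and skeletal muscle markers kept its sign and stayed past the threshold in every setting. The same held for Ucp2 with macrophage and T cell markers, and for Ucp3 with both adipocyte lists and skeletal muscle markers. Sizes moved by over 1.5 times nonetheless. HF5 Ucp3 (1.16) was 0.0538 without the titled arrays, 0.36, 0.74 and 2.0 without Week 15, 12 and 6, 0.65 to 0.71 by the exact test, normexp, scan date as a fixed block and without marked arrays, and 2.21 with array weights. The Ucp1 slope (0.48) was 0.94 without Day 1 and 0.16 by probe 2, and the Ucp2 slope (-0.29) was -0.18 with normexp. HFC-LFC Ucp1 (1.17) was 0.42 without Day 10, 0.50 by probe 2, 0.54 with marked spots kept, 0.69 in the authors' table and 2.29 without the titled arrays. HF75 Ucp2 (0.90) was 0.12 with scan date fixed, 0.25 with no time label or in the methods' t-test, 0.28 without the titled arrays and 0.46 with normexp. Relations lost without the titled arrays were those of Ucp1 with general adipocyte and mesothelial markers, of Ucp2 with neutrophil and B cell markers and with Ucp3, and of Ucp3 with the 4 leukocyte lists and mesothelial markers. Below, pairs such as HF5 Ucp1 are differences from HFC on the log2 scale.

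With normexp background, the difference was -0.27 for HF5 Ucp1, -0.17 for HF20 Ucp1, -0.18 for HF20 Ucp2, and r was -0.673 for Ucp1 and neutrophil, -0.864 for Ucp1 and T cell, -0.862 for Ucp1 and B cell, 0.598 for Ucp2 and mesothelial and visceral, -0.518 for Ucp1 and Ucp2. Without the 3 arrays with over 10% marked spots, the difference was -0.0012 for HF20 Ucp1, -0.11 for HFC-LFC Ucp2, 0.43 for HF5 Ucp2, 0.39 for HFC-LFC Ucp3, -0.28 for HF20 Ucp3, and r was -0.497 for Ucp2 and brown adipocyte, -0.623 for Ucp2 and general adipocyte. Without the titled arrays, the difference was -0.15 for HF20 Ucp1, 0.0528 for HF75 Ucp1, -0.53 for HF20 Ucp2, 1.30 for HFC-LFC Ucp3, -0.25 for HF20 Ucp3, 0.25 for HF75 Ucp3, -0.0391 for time slope Ucp3, and r was 0.455 for Ucp1 and general adipocyte, 0.298 for Ucp1 and macrophage, 0.236 for Ucp1 and neutrophil, 0.179 for Ucp1 and T cell, 0.236 for Ucp1 and B cell, -0.47 for Ucp1 and mesothelial and visceral, 0.173 for Ucp2 and brown adipocyte, 0.31 for Ucp2 and general adipocyte, 0.433 for Ucp2 and neutrophil, 0.348 for Ucp2 and B cell, -0.104 for Ucp2 and mesothelial and visceral, -0.0916 for Ucp3 and macrophage, -0.205 for Ucp3 and neutrophil, -0.0915 for Ucp3 and T cell, -0.0905 for Ucp3 and B cell, -0.206 for Ucp3 and mesothelial and visceral, 0.0625 for Ucp1 and Ucp2, -0.118 for Ucp2 and Ucp3, and probes past the threshold numbered 2 for HFC-LFC, 1 for HF5, 4 for HF75. Without HF20 Week 12, the difference was -0.13 for HF20 Ucp1, 0.034 for HF75 Ucp1, -0.0138 for HF20 Ucp2, -0.54 for HF20 Ucp3, and probes past the threshold numbered 1 for HFC-LFC. In the authors' table, the difference was -0.23 for HF20 Ucp1, 0.33 for HF75 Ucp1, -0.12 for HFC-LFC Ucp2, 0.0857 for HF5 Ucp2, 0.0211 for HFC-LFC Ucp3. In that table with Day 14 exchanged, the difference was -0.38 for HF20 Ucp1, 0.18 for HF75 Ucp1, -0.0138 for HFC-LFC Ucp2, 0.0376 for HF5 Ucp2, 0.0636 for HFC-LFC Ucp3. With Day 14 labels exchanged, the difference was 0.17 for HF75 Ucp1, -0.0505 for HFC-LFC Ucp2. With scan date as a fixed block, the difference was 0.36 for HF75 Ucp1, -0.68 for HF20 Ucp2, 1.15 for HF75 Ucp3. With marked spots kept, the difference was 0.85 for HF75 Ucp1. Without saturated arrays, the difference was 0.30 for HF75 Ucp1. With array weights, the difference was 0.85 for HF75 Ucp1, -0.0635 for HFC-LFC Ucp2, 0.35 for HF5 Ucp2, 0.62 for HFC-LFC Ucp3, 1.04 for HF75 Ucp3, and probes past the threshold numbered 32 for HFC-LFC, 2 for HF20, 1 for HF75, 158 for time slope. Without LFC Day 10 and HFC Week 12, the difference was 0.36 for HF75 Ucp1, -0.26 for HFC-LFC Ucp2, 0.25 for HF5 Ucp2, 0.19 for HFC-LFC Ucp3, -0.18 for HF20 Ucp3, and r was -0.346 for Ucp1 and neutrophil, -0.474 for Ucp1 and T cell, -0.437 for Ucp1 and B cell, -0.346 for Ucp1 and Ucp2. Without the time label, that is with no replicate block or pairing, the difference was 1.14 for HF75 Ucp1, -0.59 for HF20 Ucp2, 0.56 for HF75 Ucp3. With scan date as a random block, the difference was 0.0464 for HF75 Ucp1, -0.045 for HF20 Ucp2, 0.11 for HF75 Ucp3. In the methods' t-test, the difference was 1.14 for HF75 Ucp1, -0.59 for HF20 Ucp2, 0.56 for HF75 Ucp3. By Ucp1 probe 2, the difference was 1.53 for HF75 Ucp1, and r was 0.0109 for Ucp1 and macrophage, 0.174 for Ucp1 and neutrophil, 0.0259 for Ucp1 and T cell, 0.0606 for Ucp1 and B cell, 0.181 for Ucp1 and Ucp2, 0.303 for Ucp1 and Ucp3. As mean differences of the exact test, the difference was 0.58 for HF75 Ucp1, -0.0247 for HF20 Ucp2, 0.12 for HF75 Ucp3. With the array median, the difference was -0.30 for HFC-LFC Ucp2, -0.33 for HF20 Ucp2, and r was 0.0813 for Ucp1 and macrophage, 0.264 for Ucp2 and brown adipocyte, 0.323 for Ucp2 and general adipocyte, 0.0169 for Ucp2 and skeletal muscle, -0.268 for Ucp3 and macrophage, and probes past the threshold numbered 2 for HFC-LFC. With the percentile of detected probes, the difference was 0.0006 for HF5 Ucp2, 0.11 for HFC-LFC Ucp3, and r was -0.437 for Ucp2 and brown adipocyte, -0.578 for Ucp2 and general adipocyte, 0.388 for Ucp2 and mesothelial and visceral, and probes past the threshold numbered 1 for HFC-LFC. With quantile normalization, the difference was -0.33 for HF20 Ucp2, 0.42 for HF75 Ucp3, and r was 0.027 for Ucp2 and brown adipocyte, 0.0305 for Ucp2 and general adipocyte, and probes past the threshold numbered 4 for HFC-LFC, 6 for time slope. Over probes well above background on all arrays, probes past the threshold numbered 2 for HFC-LFC, 12 for time slope. By Ucp2 probe 3, r was -0.35 for Ucp2 and general adipocyte, 0.0138 for Ucp1 and Ucp2. By Ucp2 probe 2, r was -0.299 for Ucp2 and Ucp3.

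Leaving out each time label in turn gave -0.39 to 0.88 for HF5 Ucp1, -0.14 to 0.51 for HF20 Ucp1, -0.57 to 0.36 for HF75 Ucp1, -0.22 to 0.29 for HFC-LFC Ucp2, -0.50 to 0.41 for HF5 Ucp2, -0.26 to 0.69 for HF20 Ucp2, -0.57 to 0.52 for HFC-LFC Ucp3, -0.74 to 1.12 for HF20 Ucp3, -0.58 to 0.61 for HF75 Ucp3, 0 to 1 for HFC-LFC probes past the threshold, 0 to 1 for time slope probes past the threshold. Depth limits the reading of Ucp3, Ucp2 probe 2 and Ucp2 probe 3, which were not well above background on 14, 12 and 27 arrays, and saturation limits Ucp1 probe 2 on 7. With 1 array per diet and time label no repeat of a condition exists apart from Day 14 and Week 0. The alternatives with Day 14 exchanged, with scan date as a fixed block, without the 3 marked arrays and without LFC Day 10 and HFC Week 12 were chosen after seeing the data.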
